A study of Mus musculus with 6 samples.

Results

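The laminin chain genes described here are Lama1, Lama2, Lama3, Lama4, Lama5, Lamb1, Lamb2, Lamb3 and Lamc1. They were taken by name as 9 of the 24391 gene rows of a table of raw read counts, and all 9 passed the filter on low counts that left 15937 genes for testing. The counts come from RNA sequencing of brachiocephalic arteries, the vessel that leaves the aortic arch towards the right arm and head and a common site of advanced atherosclerotic lesions in mice. The tissue came from 3 Col15a1 -/- mice (KO) and 3 wild type mice (WT), all of C57BL/6 background and all kept on Western diet for 18 weeks. The title of the series describes the Col15a1 deletion as specific to smooth muscle cells, whereas the labels of the libraries name no Cre driver and no other allele, and the age of the animals is not given in the sources used here. The design states 3 animals per group, so replicates 1, 2 and 3 of each group are taken as separate animals.

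Laminins are trimers of 1 alpha, 1 beta and 1 gamma chain that polymerise into a sheet in the basement membrane, the thin matrix under endothelium and around each smooth muscle cell. Nidogens and the proteoglycans perlecan and agrin tie this sheet to the type IV collagen network, and cells hold on to it through integrins and through dystroglycan, which the dystrophin complex links to actin. Type XV collagen, the product of Col15a1, lies at the outer face of many basement membranes. In arteries the alpha chain of a trimer differs between cell types and largely sets which receptors it binds. The comparison therefore asks which chains these arteries transcribed and whether this differed when Col15a1 was deleted.

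Libraries held 22223584 to 26982005 counts. Smooth muscle, endothelial and macrophage markers were present in every library, which does not by itself show lesions. Their summed levels were 5337 to 14171, 908 to 1634 and 1236 to 5380 CPM over 7, 8 and 8 genes. CPM are counts relative to library size, scaled by the TMM method of edgeR. The labels also name epithelial cells, and 8 epithelial markers summed to only 13.7 to 24.1 CPM. KO 3 and WT 2 stood apart through genes of sympathetic neurons, whose 9 markers summed to 6108 and 3218 CPM there and to 234 to 359 CPM in the other libraries, and fold changes of the chain genes, shares of the 3 main alpha chains and medians of the partner lists are given with and without this pair. Col15a1 itself had 4487, 4542 and 2307 counts in KO 1, 2 and 3, against 12629, 12111 and 12973 counts in WT 1, 2 and 3. Its log2 fold change, always given as KO over WT, was -1.62 ± 0.33 (SE), with an adjusted p of 0.587 in edgeR's quasi-likelihood test and 0.00224 in DESeq2. The remaining Col15a1 reads were about as many in KO 1 as in KO 2, and no KO library reached the WT range. In such bulk tissue, fewer cells of a type and less RNA per cell cannot be told apart.

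Lama2 and Lama5 had the largest differences between KO and WT in mean share of the alpha genes, described below without a test. The 250 bases before the start of each are shown because the stretches differ in composition. Any link between these sequences and the levels of the genes was not tested. Sequences are from RefSeq, in the build GRCm38.p6, whose table held 5 of the 9 genes. The Lama2 stretch lies at chr10:27616943-27617192 and the Lama5 stretch at chr2:180225860-180226109, both on the minus strand, and capitals mark GGGCGG on either strand, the core of the GC box bound by Sp-family factors.
Lama2: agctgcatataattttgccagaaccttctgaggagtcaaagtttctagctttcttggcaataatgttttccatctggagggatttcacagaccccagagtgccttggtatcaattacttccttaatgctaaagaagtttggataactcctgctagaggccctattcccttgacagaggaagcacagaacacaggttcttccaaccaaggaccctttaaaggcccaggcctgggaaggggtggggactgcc
Lama5: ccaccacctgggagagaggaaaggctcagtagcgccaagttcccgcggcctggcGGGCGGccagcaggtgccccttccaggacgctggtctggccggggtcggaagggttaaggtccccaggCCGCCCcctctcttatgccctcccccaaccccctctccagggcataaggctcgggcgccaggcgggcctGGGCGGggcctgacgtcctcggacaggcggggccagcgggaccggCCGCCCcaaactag
The Lama2 stretch has a GC content of 47.2%, 0 CpG dinucleotides and 0 matches to GGGCGG. The Lama5 stretch has a GC content of 72.4%, 19 CpG dinucleotides and 4 matches, none overlapping another. Over all 32851 such stretches in the table, 32.7% hold GGGCGG on either strand, the median GC content is 52.4% and the median number of CpG dinucleotides is 6. Neither stretch holds TATAAA, which 12.4% of them hold, nor TGANTCA, which 6.75% hold, both searched on both strands. A match is a description of letters and not a site in use.

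Among the 9 chain genes, none passed edgeR's test between KO and WT at an adjusted p of 0.05, where 0.00% of all genes passed. At an unadjusted p under 0.05 in the same fit, 1 of 9, Lama2, was higher in KO, where 4.02% of all genes were, and 0 of 9 were lower, where 3.98% were. DESeq2 gave no adjusted p for Lama1 and called 0 of the other chain genes. It called 0.347% of the 15254 genes to which it gave an adjusted p, and limma-voom called 0 genes. The chain genes ran from a log2 fold change of -1.05 (Lama1) to 0.66 (Lama2), and 6 of 9 lay above 0, beside 60.9% of all genes tested. Their median was 0.063, beside 0.068 over all genes. Both figures moved with single animals: the median was -0.037 with 3 of 9 above 0 without WT 2, -0.036 with 4 of 9 without KO 1, -0.022 with 4 of 9 without KO 2, 0.14 with 8 of 9 without WT 1 and 0.22 with 7 of 9 without KO 3. Without WT 3 it was 0.036, and without WT 2 and KO 3 it was 0.097. The median over all genes moved as well. It was 0.065, 0.054 and -0.017 without WT 1, WT 2 and WT 3. Without KO 1, KO 2 and KO 3 it was 0.0095, 0.075 and -0.0030, and without WT 2 and KO 3 together 0.0026. In 2 of 9, Lama2 and Lamb3, every KO library lay above every WT library, where 8.33% of all genes had this order, and in 0 of 9 every KO library lay below every WT library, where 8.38% did.

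Expressed per kilobase of exon, which allows levels of different genes to be compared (RPKM, the CPM divided by exon length), Lamb2 was first with a mean of 112 RPKM over the 6 libraries. Lamc1 followed with 48.7 RPKM, Lama4 with 43.5 RPKM, Lama2 with 34.3 RPKM, Lama5 with 29.0 RPKM and Lamb1 with 20.2 RPKM. These 6 chains are the ones of which most vascular laminins are built. The other chains were far lower, with 1.59 RPKM for Lama3, 0.239 RPKM for Lamb3 and 0.0386 RPKM for Lama1. Lamb2 exceeded 97.7% of the genes tested in level per length, and Lama3 exceeded 20.2%. Neighbours in this order from Lamc1 to Lamb1 overlapped in their ranges over libraries. At the steps from Lamb2 to Lamc1, Lamb1 to Lama3, Lama3 to Lamb3 and Lamb3 to Lama1 the ranges over libraries did not overlap. The order held for Lamc1 over Lama4 in 5 of 6 libraries, for Lama4 over Lama2 in 5 of 6, for Lama2 over Lama5 in 4 of 6 and for Lama5 over Lamb1 in 6 of 6.

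**Figure D1:**
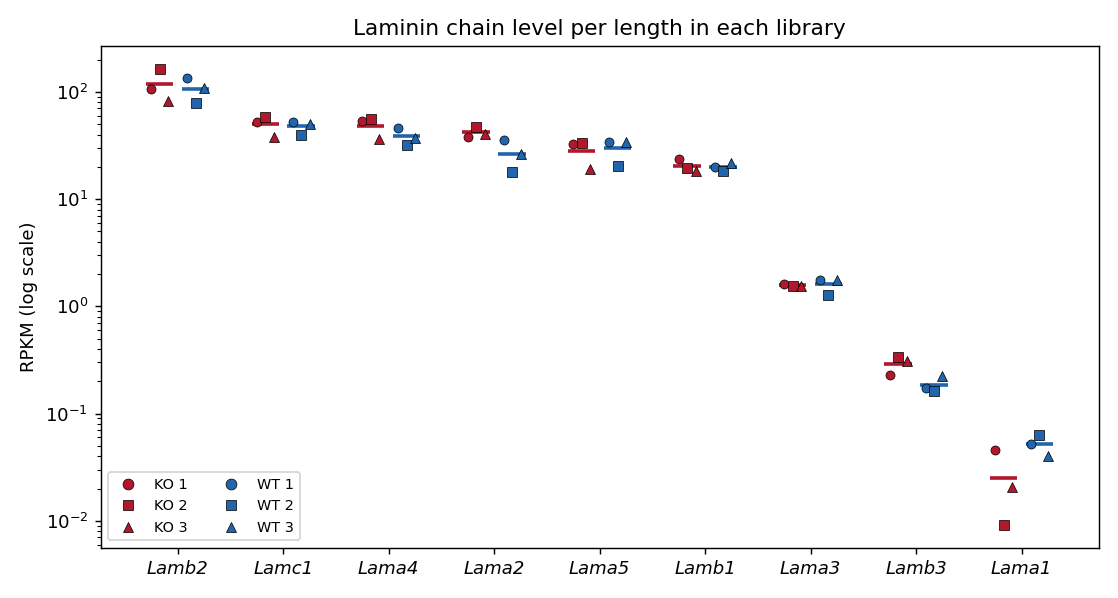
Level per length of each laminin chain gene in the 6 libraries (RPKM, log axis), KO left of WT, with each point a library and the bar the group mean. Lamb2 lies above the other chains in every library, and Lama3, Lamb3 and Lama1 lie far below the 6 chains at 20.2 RPKM or more.

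The alpha chains carry the receptor-binding domains. Lama2, on mm9 chromosome 10 from 26701092 to 27336748 (minus strand, 64 exon blocks), encodes the alpha chain of skeletal muscle and peripheral nerve basement membranes, whose loss causes congenital muscular dystrophy in people and mice. Its level was 366, 460 and 394 CPM in KO 1, 2 and 3, against 346, 175 and 254 CPM in WT 1, 2 and 3. All KO libraries lay above all WT libraries, but KO 1 and WT 1 were close. The group means were 407 ± 48.3 CPM in KO and 258 ± 85.8 CPM in WT (SD, n = 3 each). The log2 fold change was 0.66 ± 0.26 (SE), with a 95% interval of 0.01 to 1.30. The adjusted p in edgeR was 0.617 and in DESeq2 0.388. Without WT 2 and KO 3 the log2 fold change was 0.45, with an adjusted p of 0.476 in edgeR.

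Several marker lists of other cells also differed between KO and WT, not all in the direction of Lama2 and not all with groups apart. Adipocyte markers were positive in log2 fold change in 8 of 8 cases, beside 60.9% of all genes, and in 6 of 8 every KO library lay above every WT library, beside 8.33%. They summed to 991 to 1287 CPM in KO and 244 to 787 CPM in WT, and WT 2 was the lowest in both the sum and Lama2. Within KO their order was the reverse of that of Lama2, with sums of 1287, 991 and 1122 CPM in KO 1, 2 and 3. Schwann cell markers, 9 of 9 positive, summed to 118 to 452 CPM in KO and 97.2 to 293 CPM in WT, and the groups overlapped. Skeletal muscle markers, 8 of 8 positive, summed to 335, 44.0 and 18.2 CPM in KO 1, 2 and 3, against 89.4, 12.3 and 9.42 CPM in WT 1, 2 and 3. Their highest sum was in KO 1, which had the lowest Lama2 level of the KO libraries. Smooth muscle markers, 7 of 7 positive, had overlapping sums, with KO 2 the highest and WT 2 the lowest library, as for Lama2. Endothelial markers, 7 of 8 positive, summed to 1101 to 1634 CPM in KO and 908 to 1618 CPM in WT, and the groups overlapped. Macrophage markers lay the other way, 8 of 8 with every KO library below every WT library, beside 8.38% of all genes, and sums of 1236 to 3401 CPM in KO and 4425 to 5380 CPM in WT. Adventitial fibroblast markers, 5 of 7 positive, summed to 1469 to 2967 CPM in KO and 2488 to 3627 CPM in WT, with overlap. Every KO library lay above every WT library for Dpep1, 1 of 7, beside 8.33% of all genes. For Lum, 1 of 7, every KO library lay below every WT library, beside 8.38%. Sympathetic neuron markers, 9 of 9 positive, were high in KO 3 and WT 2, and their groups overlapped. No marker of these lists was at 0 in all libraries, and their part in the Lama2 difference was not tested.

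Lama4, also on mm9 chromosome 10 (38685321 to 38829994, plus strand, 38 exon blocks), encodes a short alpha chain of endothelial, smooth muscle and fat cell basement membranes. Its level was 322, 336 and 220 CPM in KO 1, 2 and 3, against 278, 194 and 226 CPM in WT 1, 2 and 3. KO 1 and KO 2 lay above the WT libraries and KO 3 fell within their range. The log2 fold change was 0.33 ± 0.22 (SE), with an adjusted p of 0.755 in edgeR. It was 0.38 without WT 2 and KO 3, with an adjusted p of 0.423, and with single libraries left out it ran from 0.19 without KO 1 to 0.50 without KO 3. It was 0.22 without KO 2 and likewise 0.22 without WT 2.

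Lama5, on mm9 chromosome 2 (179911078 to 179960564, minus strand, 79 exon blocks), has the longest exon sequence of the 9, 11388 bases, and encodes an alpha chain of mature endothelium and of many epithelia. Its level was 370, 379 and 216 CPM in KO 1, 2 and 3, against 391, 233 and 391 CPM in WT 1, 2 and 3. The groups overlapped, and the low library of each group, KO 3 or WT 2, was the one with neuron transcripts. The log2 fold change was -0.07 ± 0.30 (SE), with a 95% interval of -0.81 to 0.67 and an adjusted p of 0.954 in edgeR. Its direction was not stable: it was 0.15 without KO 3 and 0.044 without WT 1, but -0.07 without WT 2 and KO 3 together.

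Lama3, on mm9 chromosome 18 (12492533 to 12741521, plus strand), encodes the alpha chain that epithelia anchor to through hemidesmosomes. It varied little within KO, with 16.7, 16.1 and 16.0 CPM in KO 1, 2 and 3. It varied more within WT, with 18.4, 13.2 and 18.3 CPM in WT 1, 2 and 3. The log2 fold change was -0.03 ± 0.16 (SE), with an adjusted p of 0.963 in edgeR, and it was 0.049 without WT 1 and -0.17 without WT 2 and KO 3. Lamb3, on mm9 chromosome 1 (195128188 to 195170072, plus strand), encodes the beta chain that joins Lama3 in epithelia. It had 22, 32 and 33 counts in KO 1, 2 and 3, against 16, 20 and 24 counts in WT 1, 2 and 3. Scaled to depth, KO 1 at 0.95 CPM was only just above WT 3 at 0.93 CPM, and their 95% Poisson intervals, 13.8 to 33.3 counts in KO 1 and 15.4 to 35.7 counts in WT 3, overlapped widely; such intervals cover counting error only. Lamb3 had a log2 fold change of 0.65 ± 0.29 (SE) and an adjusted p of 0.643 in edgeR, and was at 0.48 without WT 2 and KO 3. The 5 tested epithelial markers all had positive log2 fold changes as well, with list sums of 13.8 to 24.1 CPM in KO and 13.7 to 15.2 CPM in WT, and their part in the Lamb3 difference was not tested.

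Lama1, on mm9 chromosome 17 (68046605 to 68171985, plus strand), encodes the alpha chain of early embryonic basement membranes, which few adult tissues retain. It was barely detected, with 10, 2 and 5 counts in KO 1, 2 and 3, against 11, 18 and 10 counts in WT 1, 2 and 3. KO 1 lay within the WT range in CPM, and the log2 fold change of -1.05 ± 0.59 (SE) had an adjusted p of 0.696 in edgeR. It was -1.83 without KO 1, -0.66 without KO 2 and -0.76 without WT 2 and KO 3.

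**Figure D2:**
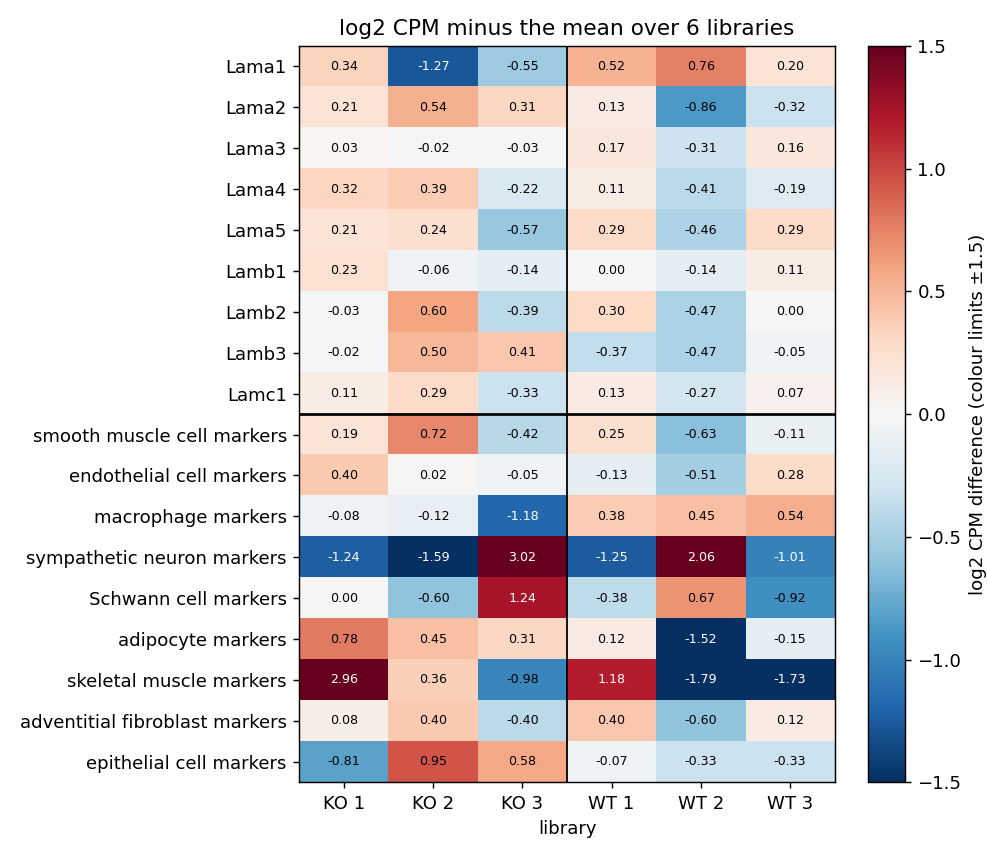
Log2 CPM of each laminin chain gene in each library minus the mean of that gene over the 6 libraries, KO columns left of WT columns, with the mean over each marker list in the lower rows. Lama2 is above its mean in KO 1, 2 and 3 and in WT 1, while KO 3 and WT 2 are the lowest libraries for Lama5, Lamb2 and Lamc1.

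The beta and gamma chains form the coiled core of the trimer together with the alpha chain. Lamb2, on mm9 chromosome 9 (108382193 to 108392861, plus strand, 33 exon blocks), encodes the beta chain of smooth muscle, kidney glomerulus and neuromuscular junction. Its level was 599, 924 and 467 CPM in KO 1, 2 and 3, against 750, 440 and 610 CPM in WT 1, 2 and 3. The groups overlapped, with KO 2 above every WT library, and the log2 fold change was 0.15 ± 0.32 (SE), with an adjusted p of 0.924 in edgeR and the same 0.15 without WT 2 and KO 3. Smooth muscle markers summed to 8779, 14171 and 5665 CPM in KO 1, 2 and 3, against 9471, 5337 and 7411 CPM in WT 1, 2 and 3, so that KO 2 was the highest and WT 2 the lowest library for both. The part of these markers in the Lamb2 levels was not tested. Without KO 2 the Lamb2 log2 fold change was -0.17.

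Lamb1, on mm9 chromosome 12 (31950159 to 32014504, plus strand, 33 exon blocks), encodes a beta chain of many tissues. It varied little over the libraries, with 137, 112 and 105 CPM in KO 1, 2 and 3, against 116, 106 and 126 CPM in WT 1, 2 and 3. Its log2 fold change was 0.03 ± 0.14 (SE), with a 95% interval of -0.31 to 0.36 and an adjusted p of 0.962 in edgeR; with upper-quartile scaling it was -0.0011, with total counts -0.014, and without WT 2 and KO 3 0.03. Lamc1, on mm9 chromosome 1 (155066052 to 155179916, minus strand, 28 exon blocks), encodes the gamma chain found in most laminins, without which mouse embryos form no basement membrane. Its level was 397, 448 and 292 CPM in KO 1, 2 and 3, against 401, 304 and 384 CPM in WT 1, 2 and 3. The groups overlapped, with a log2 fold change of 0.06 ± 0.20 (SE), a 95% interval of -0.44 to 0.56 and an adjusted p of 0.940 in edgeR. Leaving out KO 1, KO 2 or WT 2 brought it to -0.036, -0.077 or -0.050, and it was 0.22 without KO 3 and 0.097 without both WT 2 and KO 3.

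Without WT 2 and KO 3, which leaves 2 animals in each group, Lama2, Lama4 and Lamb3 were above WT in both KO libraries and Lama3 and Lama5 were below WT in both. These are 3 and 2 of the 9 chain genes, where 20.5% and 20.0% of all genes had the same orders.

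**Figure D3:**
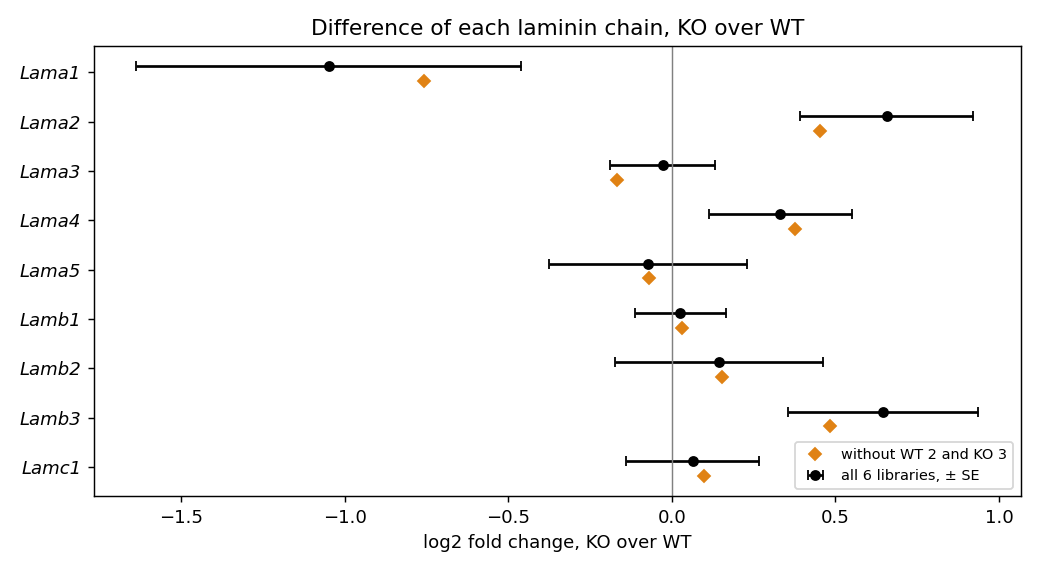
Log2 fold change of KO over WT for each laminin chain gene in all 6 libraries (black, with its SE) and without WT 2 and KO 3 (orange). Lama2 is at 0.66 in all libraries and 0.45 without the pair, and Lama1 has the widest SE, 0.59.

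The make-up of the alpha class was then described as the share of each chain in the summed RPKM of the 5 alpha genes of a library. Lama5 made up 26.0%, 24.2% and 19.4% of the alpha sum in KO 1, 2 and 3, against 29.1%, 28.4% and 34.5% in WT 1, 2 and 3. All KO shares lay below all WT shares, and the means were 23.2 ± 3.38% in KO and 30.7 ± 3.31% in WT (SD, n = 3 each), a difference of -7.49 percentage points. Without WT 2 and KO 3 the difference was -6.74 percentage points. Lama2 made up 30.1%, 34.4% and 41.6% in KO 1, 2 and 3, against 30.3%, 25.0% and 26.2% in WT 1, 2 and 3, so that KO 1 and WT 1 were equal to within 1 percentage point. The mean Lama2 share differed by 8.20 percentage points between KO and WT, and by 4.02 without WT 2 and KO 3. Shares of a library add up to the whole, so the Lama5 and Lama2 differences are not independent of each other. The Lama5 level itself averaged 322 CPM in KO and 338 CPM in WT, with overlap. The alpha sum averaged 120 RPKM in KO and 96.4 RPKM in WT, also with overlap. Lama4 held 42.6%, 40.3% and 37.3% in KO 1, 2 and 3, against 39.0%, 44.7% and 37.5% in WT 1, 2 and 3. It was the leading alpha chain in every library except KO 3, where Lama2 led. Lama3 held 1.13% to 1.77% and Lama1 under 0.1% of the alpha sum in every library. The Lama1 shares, like those of Lama5, were all lower in KO than in WT, but rest on at most 18 counts in a library.

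The same contrast seen as a ratio of levels per length was 1.16, 1.42 and 2.14 for Lama2 over Lama5 in KO 1, 2 and 3, against 1.04, 0.881 and 0.760 in WT 1, 2 and 3. Lama4 over Lama5 was 1.64, 1.67 and 1.92 in KO 1, 2 and 3, against 1.34, 1.57 and 1.09 in WT 1, 2 and 3. In both ratios every KO library lay above every WT library, and KO 3 was the highest. The summed alpha genes over Lamc1 came to 2.41, 2.34 and 2.54 in KO 1, 2 and 3, against 2.24, 1.80 and 1.98 in WT 1, 2 and 3, again without overlap. Of 7 such ratios computed, these 3 had groups that did not overlap. Among single genes, 8.33% of all genes tested had every KO library above every WT library. No such share was computed for ratios, so the count of 3 cannot be read as a result. These 3 ratios share Lama5 or the alpha genes and are therefore not independent of each other. As values computed over the chosen genes they were given no test.

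In the beta class, Lamb2 made up 80.9% to 89.3% of the summed RPKM and Lamb1 10.5% to 18.9%. Lamb3 made up 0.114% to 0.307%, with all KO shares above all WT shares, on at most 33 counts in a library. Lamb1 averaged 15.5 ± 4.35% in KO and 16.2 ± 2.95% in WT (SD, n = 3 each), a difference of -0.69 percentage points that was smaller than the spread in either group. Lamb2 over Lamb1 was 4.50, 8.50 and 4.56 in KO 1, 2 and 3, against 6.64, 4.28 and 4.98 in WT 1, 2 and 3, with overlap. The beta sum over Lamc1 was 2.51, 3.13 and 2.65 in KO 1, 2 and 3, against 2.92, 2.42 and 2.59 in WT 1, 2 and 3, also with overlap.

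**Figure D4:**
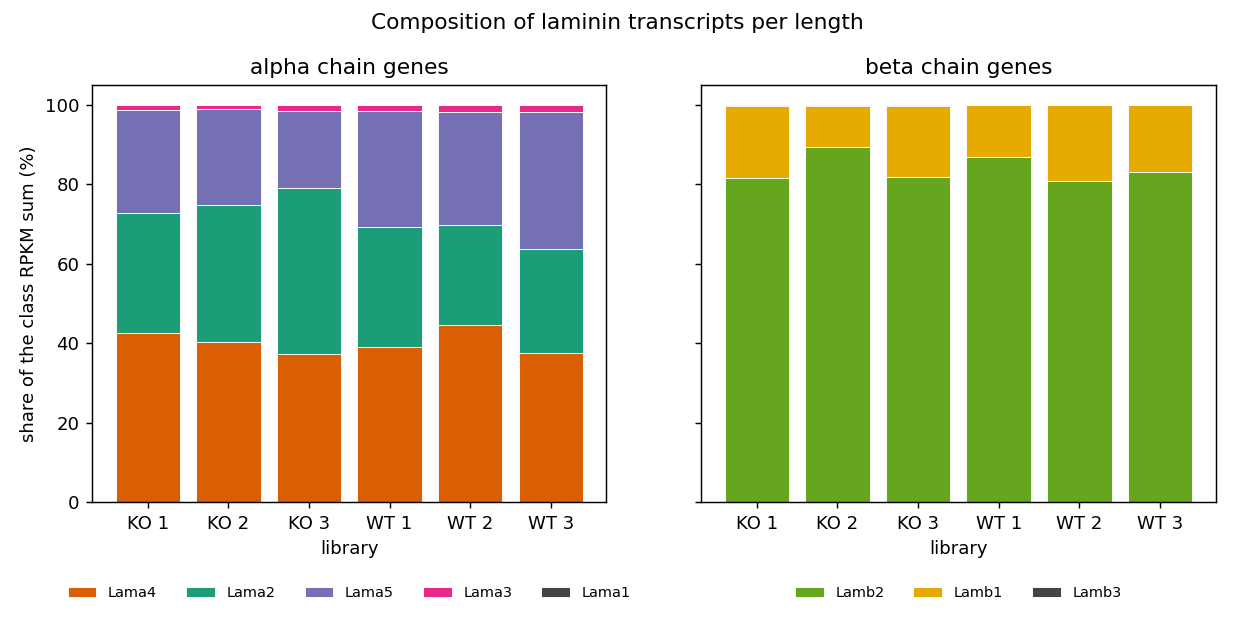
Share of each chain gene in the summed RPKM of the alpha genes (left) and of the beta genes (right), one bar per library, KO bars left of WT bars. The Lama5 share is 19.4% to 26.0% in KO and 28.4% to 34.5% in WT, and Lamb2 makes up at least 80.9% of the beta genes in every library.

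Receptors for laminin showed no called difference. Among 8 tested genes, 7 were positive in log2 fold change, beside 60.9% of all genes. Their median was 0.12, and 0.15 without WT 2 and KO 3, and 0 passed edgeR's test, adjusted or not. Itga7, the integrin alpha subunit of muscle cells that pairs with Itgb1 to bind laminin, had 117, 134 and 111 CPM in KO 1, 2 and 3, against 113, 88.3 and 87.2 CPM in WT 1, 2 and 3. KO 3 fell just below WT 1 for Itga7, and its adjusted p in edgeR was 0.632. Bcam, a surface glycoprotein that binds the Lama5 chain, averaged 235 ± 65.8 CPM in KO and 175 ± 28.5 CPM in WT, with an adjusted p of 0.692. Itga3 averaged 136 ± 22.0 CPM in KO and 117 ± 17.4 CPM in WT, whereas Itga6 averaged 119 ± 34.4 CPM in KO and 146 ± 24.7 CPM in WT. Both encode alpha subunits of laminin-binding integrins, and their groups overlapped.

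The dystrophin complex links dystroglycan, a receptor of Lama2-containing laminin, to the cytoskeleton. Log2 fold changes were positive for 12 of its 13 tested genes (median 0.27), beside 60.9% of all genes, and 0 passed edgeR's test with adjustment. Without adjustment 2 of 13 were higher in KO at a p under 0.05, beside 4.02% of all genes, and in 3 of 13 every KO library lay above every WT library, beside 8.33%. Dtna, which encodes alpha-dystrobrevin, an adaptor of the complex, had 92.8, 102 and 81.9 CPM in KO 1, 2 and 3, against 71.7, 57.8 and 55.0 CPM in WT 1, 2 and 3. The Dtna log2 fold change was 0.59 ± 0.15 (SE), with an adjusted p of 0.587 in edgeR and 0.132 in DESeq2. Sntb1, which encodes a syntrophin that binds signalling proteins to the complex, also had groups apart. Sntb1 averaged 28.5 ± 4.12 CPM in KO and 20.9 ± 2.63 CPM in WT, with an adjusted p of 0.587 in edgeR. Sgcd, a sarcoglycan of smooth and striated muscle, averaged 112 ± 21.3 CPM in KO and 81.6 ± 23.5 CPM in WT, with overlap. Without WT 2 and KO 3 the median of the list was 0.20, and without WT 1 it was 0.55. The skeletal muscle and smooth muscle marker sums given above, 8 of 8 and 7 of 7 with positive log2 fold changes, stood in the same direction, and their part was not tested.

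Dystroglycan binds laminin through sugar chains built by a set of enzymes, of which 11 were found in the table and 10 tested. Log2 fold changes were positive for 8 of these, beside 60.9% of all genes, with a median of 0.10, and 0.031 without WT 2 and KO 3. In edgeR 0 passed with adjustment. Without adjustment 1 of 10 was higher in KO at a p under 0.05, beside 4.02% of all genes. Large, the enzyme that extends the laminin-binding sugar, averaged 105 ± 4.36 CPM in KO and 96.4 ± 12.5 CPM in WT. Ispd, which makes the sugar donor for that chain, averaged 9.37 ± 3.42 CPM in KO and 7.43 ± 2.05 CPM in WT. Both overlapped between groups.

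Among other basement membrane genes 5 of 12 were positive, beside 60.9% of all genes, with a median of -0.095. In edgeR 0 passed with adjustment. Without adjustment 1 of 12 was higher in KO at a p under 0.05, beside 4.02% of all genes. That gene, Papln, which encodes the matrix proteoglycan papilin, had 3.88, 3.10 and 7.53 CPM in KO 1, 2 and 3, against 1.82, 2.69 and 2.43 CPM in WT 1, 2 and 3, and an adjusted p of 0.599. Every KO library was above every WT library for Papln alone, 1 of 12, beside 8.33% of all genes. KO 3 was far above the other libraries for Papln. The direction of the list rested on KO 3: without it 10 of 12 were positive with a median of 0.11, and without WT 2 and KO 3 the median was -0.018 with 6 of 12 positive. Npnt, which encodes the integrin ligand nephronectin, averaged 363 ± 174 CPM in KO and 249 ± 76.6 CPM in WT. Sparc, which encodes a collagen-binding matricellular protein, averaged 1534 ± 583 CPM in KO and 2014 ± 167 CPM in WT, and Nid2, the less abundant nidogen, averaged 22.9 ± 4.08 CPM in KO and 25.7 ± 4.63 CPM in WT. These groups overlapped.

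Netrins and further proteins with laminin domains comprised 8 found and 6 tested genes, of which 4 were positive, beside 60.9% of all genes. Their median was 0.051 (-0.035 without WT 2 and KO 3), and 0 passed edgeR's test, adjusted or not. Ntn3, a netrin, averaged 5.61 ± 0.41 CPM in KO and 6.83 ± 0.81 CPM in WT, with an adjusted p of 0.718 in edgeR. Every KO library lay below every WT library for Ntn3 alone, 1 of 6, beside 8.38% of all genes. Megf9 averaged 27.9 ± 5.67 CPM in KO and 23.2 ± 2.79 CPM in WT, and Ntng2 averaged 8.74 ± 1.68 CPM in KO and 8.22 ± 1.00 CPM in WT. Ntng1, a membrane-anchored netrin of neurons, had 46.4 CPM in KO 3 and 26.0 CPM in WT 2, against 4.33 to 5.45 CPM in the other libraries, the same pair in which neuron markers were high.

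**Figure D5:**
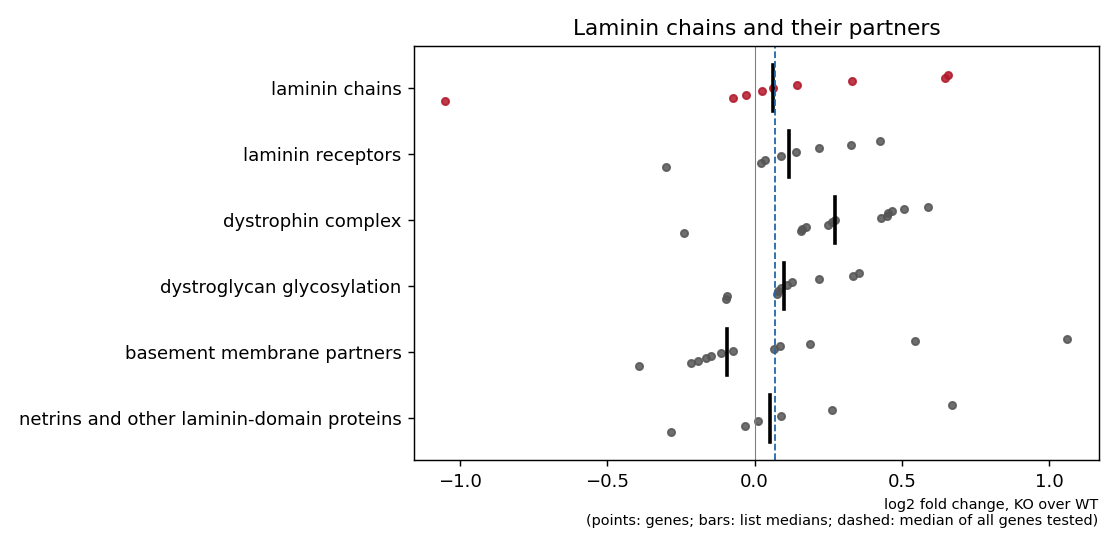
Log2 fold change of KO over WT for every tested gene of the laminin chain list and of 5 lists of partner genes, with the list median as a bar and the median of all genes tested as a dashed line. The dystrophin complex has the highest list median, 0.27, and the basement membrane partners the lowest, -0.095, which turned to 0.11 without KO 3.

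Likeness of other genes to each chain over the 6 libraries was measured as Pearson's r of log2 CPM against 12018 genes with a mean of at least 5 CPM, as a description only, since with 6 libraries many genes reach a high value: 50 genes for Lama3 and up to 498 for Lamc1 had an r of 0.9 or more. The points share their libraries, and KO 3 and WT 2 stood apart in many genes. Closest to Lama2 were Pln, which encodes the calcium pump regulator phospholamban (0.996), Fh1, which encodes the citric acid cycle enzyme fumarase (0.994), and Ang, which encodes angiogenin (0.991). Closest to Lama5 were Serpinb8 (0.996), Acvrl1, which encodes an endothelial receptor of the TGF-beta family (0.992), and Ptges3l (0.992). Lama4 was closest to Tdrd3 (0.993), Nasp (0.993) and Hyal1 (0.992), and Lama3 to Zbtb8a (0.983), Adam15 (0.979) and Ago4 (0.979). Lamb2 was closest to Adamts15 (0.993), Zfp704 (0.993) and Ttc37 (0.992). Lamb1 was closest to Zcchc11 (1.000), Pkn3 (0.991) and Clk4 (0.991), and Lamc1 to Crispld2 (0.996), Sft2d2 (0.995) and Fbxo32 (0.995).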

How the data were processed

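Brachiocephalic artery RNA of 3 KO and 3 WT mice was flash frozen, extracted with Trizol and sequenced from standard Illumina libraries, per the labels' protocols. The authors deposited unnormalised counts of reads for each gene. Per the file headers, exons of the UCSC mm9 annotation were counted by featureCounts, version 1.4.6-p4, and added up per gene name, without any setting for strand, for read pairs or for reads with several alignments. The submitters' processing notes also name STAR (given as version 3.0), CASAVA, Subread and DESeq2. No exon of the 9 chain genes overlapped exons of another gene in the table.

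The whole table was fitted in edgeR 4.0.16 under R 4.3.3 (quasi-likelihood F test by glmQLFit and glmQLFTest, two-sided, TMM scaling, filterByExpr with a minimum count of 10), with Benjamini-Hochberg adjustment over 15937 genes and a threshold of 0.05; DESeq2 1.42.0 and limma-voom (limma 3.58.1) were alternatives. The fit was tested on simulated data, where it missed most changes of 2-fold, so a gene that was not called can still differ. The SE of a log2 fold change is its size divided by the square root of F. RPKM used the exon length of the count table. Counts per library (22223584 to 26982005) keep counting error small except for Lama1 and Lamb3. No replicate pair agreed within sampling noise (chi-square per degree of freedom 30.0 to 233). Laminin genes beyond these 9 are not analysed here.

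The chain genes, lists and tests were chosen with earlier results of these data known. Besides the 9 chains and Col15a1, the genes named are up to 4 per partner list with the smallest unadjusted p, and the 3 most alike by Pearson's r (log2 CPM, prior count 2) per chain with a mean of at least 1 CPM. Values of some genes that this rule names are not reported here. Motifs were searched in RefSeq sequences of GRCm38.p6.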

Additional observations from a re-analysis of the deposited data

How the results depend on the processing

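No gene passed the threshold in edgeR with all 6 libraries (1275 genes at an unadjusted p under 0.05), and 0 passed when any single library was left out. DESeq2 called 53 genes, the fit without WT 2 and KO 3 called 1 and the fit with the sympathetic neuron marker level as a covariate called 2. In 151 fits of the 9 chain genes under 17 other settings, 0 called a chain gene, 139 kept the direction and 12 reversed it, and the cause was not tested. Reversals were 0.049 for Lama3 and 0.044 for Lama5 without WT 1; 0.15 for Lama5 without KO 3; -0.0011 for Lamb1 with upper-quartile scaling and -0.014 with total counts. Without WT 2 the log2 fold change was -0.037 for Lamb1, -0.037 for Lamb2 and -0.050 for Lamc1. Without KO 1 it was -0.16 for Lamb1 and -0.036 for Lamc1, and without KO 2 it was -0.17 for Lamb2 and -0.077 for Lamc1. With single libraries left out, the log2 fold change ran up to 0.10 for Lamb1, 0.34 for Lamb2 and 0.22 for Lamc1, and down to -0.28 for Lama5. Lama2 stayed positive in its 17 settings, at 0.44 to 0.92, with adjusted p of 0.127 to 1.00. The filter of at least 1 CPM removed Lama1 and Lamb3, which have no value there. The Lama4 share of the alpha genes differed by -0.32 percentage points in all libraries and by 3.18 without WT 2 and KO 3. With single libraries left out, list medians ran from 0.023 to 0.18 for laminin receptors, 0.23 to 0.55 for the dystrophin complex, 0.029 to 0.12 for dystroglycan glycosylation, -0.26 to 0.11 for basement membrane partners and -0.083 to 0.13 for netrins. Over the same fits the median of all genes ran from -0.017 to 0.075. Deviations from the group means correlated at 0.43, -0.68 and -0.58 for replicate numbers 1, 2 and 3. No KO library correlated best with the WT library of its own number. The highest correlation, 0.77, was between KO 3 and WT 2, the pair high in neuron markers. Deviations within a group are not independent, so this pair also shapes the other values. The check therefore cannot decide whether equal numbers pair the animals. With the replicate number as a block, 0 genes passed and Lama2 was at 0.70, with an adjusted p of 1.00. Depth limits Lama1 and Lamb3, which had at most 33 counts in a library.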
